A study of Homo sapiens with 18 samples.

Results

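The genes described here are 41 genes of mitosis and of the G2/M transition, the step at which a cell that has copied its DNA enters division. They were chosen by name for their roles, with no measured value in the rule, but with earlier results of these data known. All 41 were found among the 16472 genes of the expression table. They were followed in NIKS cells, a human keratinocyte line that became immortal spontaneously, in 6 groups of 3 libraries each (18 in all). Libraries labelled WT came from the line named Vec2 and libraries labelled KO from the line named KO5, in which SP100, a protein of PML nuclear bodies, was knocked out. Each genotype was sampled untreated (0 h) and after 12 or 48 h in 25 ng/mL of human interferon alpha 2a, and the labels call the 3 libraries of a group biological replicates. Both lines grew on lethally irradiated J2/3T3 mouse fibroblasts. Each genotype is 1 line, so genotype and line cannot be told apart, and no untreated library of 12 or 48 h was analysed here, so interferon and time in culture cannot be told apart either. The study as a whole concerns SP100 and the histone chaperone HIRA at PML nuclear bodies, and the comparisons here follow the mitotic genes over the same genotypes and times.

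Mitotic genes are transcribed in waves. Cyclins A and B switch on the kinase CDK1, which drives entry into mitosis, and the spindle assembly checkpoint then holds separation of the chromosomes until every kinetochore is attached. The anaphase-promoting complex, a ubiquitin ligase activated by CDC20, ends mitosis by marking cyclin B and securin for destruction. Transcription of most of these genes peaks in G2 and mitosis. It is held low in resting cells and G1 by the DREAM complex and is raised later by MuvB with B-MYB and FOXM1, through a promoter element called the cell cycle genes homology region (CHR), often beside CCAAT boxes bound by NF-Y. In a mixed culture the level of such a transcript reflects both how many cells are in G2 and mitosis and how much RNA each of them holds, and bulk RNA cannot tell these apart.

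Upstream sequences are shown for the genes on which the results below turn: the 3 with the lowest changes at 12 h in WT (CDC25C, PTTG1 and CENPF), both B cyclins, the kinase PLK1, whose level moved little, and CDC20 and NCAPG, which rose. Each is the stretch of 150 bases just before the transcription start in RefSeq (GRCh38.p14), 5′ to 3′ on the gene's strand. Capitals mark CHR letters (TTTGAA or TTTAAA, or TTCAAA as the reverse of the first) and CCAAT boxes (CCAAT, or ATTGG as its reverse). CDC25C has 4 annotated starts and PTTG1 has 2. The CDC25C start shown was picked because its window holds both motifs just upstream.
CDC25C: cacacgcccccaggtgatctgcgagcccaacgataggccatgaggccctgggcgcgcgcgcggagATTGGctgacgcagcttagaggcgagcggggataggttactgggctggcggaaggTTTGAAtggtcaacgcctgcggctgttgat
PTTG1: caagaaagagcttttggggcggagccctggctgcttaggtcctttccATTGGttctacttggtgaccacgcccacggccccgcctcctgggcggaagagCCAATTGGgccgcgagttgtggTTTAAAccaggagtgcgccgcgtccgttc
CENPF: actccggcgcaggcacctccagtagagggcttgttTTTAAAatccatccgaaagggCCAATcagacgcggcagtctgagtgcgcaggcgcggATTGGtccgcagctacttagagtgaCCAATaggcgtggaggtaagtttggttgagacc
CCNB1: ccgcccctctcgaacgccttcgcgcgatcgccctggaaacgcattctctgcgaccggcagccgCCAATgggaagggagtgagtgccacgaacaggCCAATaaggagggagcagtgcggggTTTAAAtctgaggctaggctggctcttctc
CCNB2: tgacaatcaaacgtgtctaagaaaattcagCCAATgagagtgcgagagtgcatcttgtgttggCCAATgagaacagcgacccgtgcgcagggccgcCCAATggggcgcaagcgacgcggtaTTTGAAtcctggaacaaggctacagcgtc
PLK1: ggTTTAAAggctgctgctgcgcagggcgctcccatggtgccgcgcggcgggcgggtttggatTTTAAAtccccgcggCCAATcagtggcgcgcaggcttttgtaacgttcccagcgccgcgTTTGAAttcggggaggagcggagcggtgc
CDC20: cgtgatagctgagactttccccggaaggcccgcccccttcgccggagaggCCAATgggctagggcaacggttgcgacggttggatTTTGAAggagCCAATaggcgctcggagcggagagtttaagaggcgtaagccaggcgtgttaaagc
NCAPG: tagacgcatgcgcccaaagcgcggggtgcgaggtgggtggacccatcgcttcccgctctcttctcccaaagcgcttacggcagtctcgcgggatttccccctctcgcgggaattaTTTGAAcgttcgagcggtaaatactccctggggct
These lie at chr5:138331805-138331954 (minus strand) for CDC25C, chr5:160421705-160421854 (plus strand) for PTTG1, chr1:214603045-214603194 (plus strand) for CENPF, chr5:69167000-69167149 (plus strand) for CCNB1, chr15:59104996-59105145 (plus strand) for CCNB2, chr16:23678739-23678888 (plus strand) for PLK1, chr1:43358831-43358980 (plus strand) for CDC20 and chr4:17810829-17810978 (plus strand) for NCAPG.

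The genes share these letters beyond what the rule used. Windows from 250 bases before to 50 after the start were given for 35 of the 41 genes, 42 windows in all, since 5 genes have more than 1 start. FOXM1, AURKA, TTK, UBE2C, BIRC5 and TPX2 had none. CHR letters on either strand were in 36 of the 42 windows (85.7%), against 24.0% of the 35116 windows of all genes. CCAAT letters were in 32 (76.2%), against 34.6%, and both together in 28 (66.7%), against 9.27%. TTTGAA was in 69.0% of member windows and 15.2% of all windows, and TTTAAA, which is its own reverse complement, in 35.7% and 12.2%. The median GC content was 61.3% over member windows and 58.7% over all. In 26 member windows a CHR match lay from 60 bases before to 20 after the start, an interval counted for members only. In the stretches printed above, PTTG1, CCNB1, CCNB2 and PLK1 each had TTTAAA or TTTGAA at 29 or 30 bases before the start, with CCAAT boxes farther upstream; so did CDC25C, at the start picked for its matches. The CHR match lay at 115 bases before the start in CENPF, 65 in CDC20 and 35 in NCAPG, whose stretch held no CCAAT, and at 84 before the second PTTG1 start. CCNA2, BUB1 and AURKB had no CHR letters in their windows, which says only that these 6 letters are not there. Among 31 tested genes of S phase and DNA replication, 27 had windows, and 16.7% of those windows held CHR letters while 66.7% held CCAAT. Of 44 further mitotic genes, described below, 37 had windows. CHR letters were in 64.4% of those windows and both motifs together in 42.2%, while TTTAAA was in 8.89%. CHR letters were thus frequent in mitotic genes beyond the 41 members. A match is a description of letters, not a measured site, and the genes that rose and the genes that fell both carry matches.

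**Figure D1:**
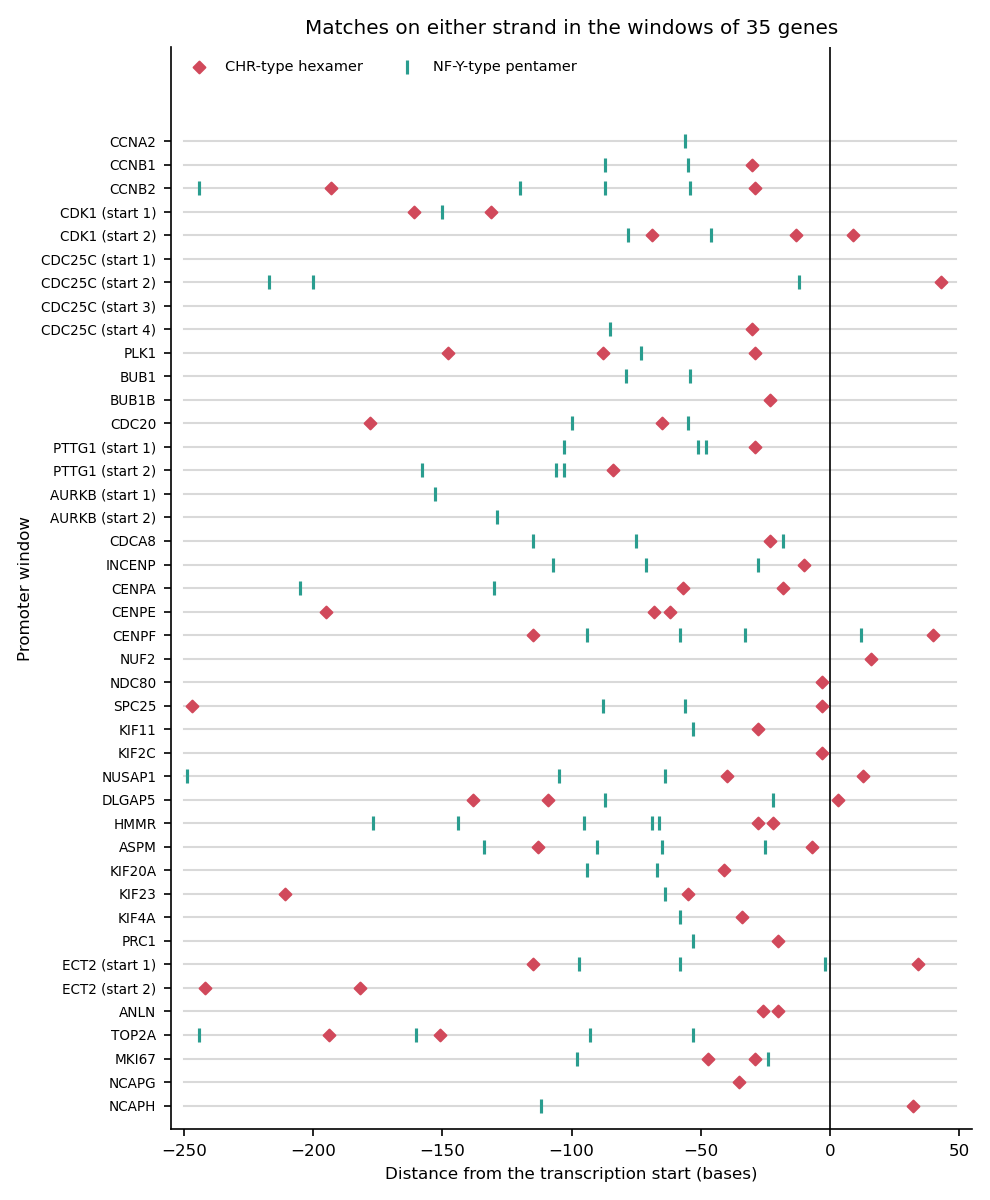
Positions of CHR hexamers (red diamonds) and CCAAT pentamers (green bars) in 42 promoter windows of 35 mitotic genes, in bases from the transcription start. In 26 windows a diamond lies from 60 bases before to 20 after the start, an interval counted for these genes only.

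The values are RPKM, reads per kilobase of transcript scaled to sequencing depth, as deposited. Relative depth, estimated from the values of low genes, ran from 0.844 to 1.25 of the mean library, a 1.48-fold range. Pearson's r within groups ran from 0.985 to 0.989. SP100 was lower in KO but not absent: its mean was 30.0, 159 and 127 RPKM in WT at 0, 12 and 48 h and 15.1, 89.1 and 59.8 in KO. All 5 interferon check genes rose at both times in both genotypes; MX1 went from 0.317 to 580 RPKM in WT at 12 h. All 8 keratinocyte markers were tested, with a summed level of 19397 to 23895 RPKM per library. Of 11 fibroblast genes 4 have a row, and their summed level stayed between 6.21 and 9.48 RPKM, with FAP at most 6.83 and COL1A1 at most 3.14. COL1A2, COL3A1, DCN, LUM, PDGFRA, THY1 and TCF21 have no row.

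The mitotic genes were strongly expressed before treatment. In untreated WT the median member stood at 40.0 RPKM, against 12.0 over the 13280 genes tested, and 40 of 41 lay above that gene median. CCNB1 was highest at 199 RPKM ± 3.52 (SD, n = 3), followed by CDC20 at 178 ± 6.99 and PTTG1 at 170.0 ± 10.7. CDC25C was lowest at 9.33 ± 0.868. Down this order, 24 of the 40 neighbouring pairs had replicate ranges that overlapped. All 41 passed the filter of at least 1 RPKM in at least 3 libraries, so every member was tested.

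After 12 h in interferon most mitotic genes were lower, in both genotypes. In WT 29 of 41 fell, 3 rose and 9 did not pass the test, where 29.8% of all genes tested fell and 15.1% rose. In KO 25 fell, 3 rose and 13 did not pass, where 32.8% of all genes fell and 16% rose. The test was limma on log2(RPKM + 1) with Benjamini-Hochberg adjustment over all 13280 genes and a threshold of 0.05. Changes below are on that scale, where the added 1 makes the change of weakly expressed genes look smaller. The median change over the 41 genes was -0.21 in WT, with a range from -0.68 to 0.22, and -0.21 in KO, from -0.79 to 0.27. Over all genes tested the median shifted by -0.085 (WT) and -0.095 (KO), so part of the drop in RPKM was shared by most genes. With the libraries rescaled by the median of ratios, which sets the typical gene to no change, 16 members fell and 3 rose in WT (all genes 20.5% and 21.8%), and 18 fell and 5 rose in KO (22.9% and 23.7%). The members' median change was then -0.11 in WT and -0.10 in KO. Of the 32 calls in WT 16 held in each of 25 other settings, and of the 28 in KO 19 did.

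**Figure D2:**
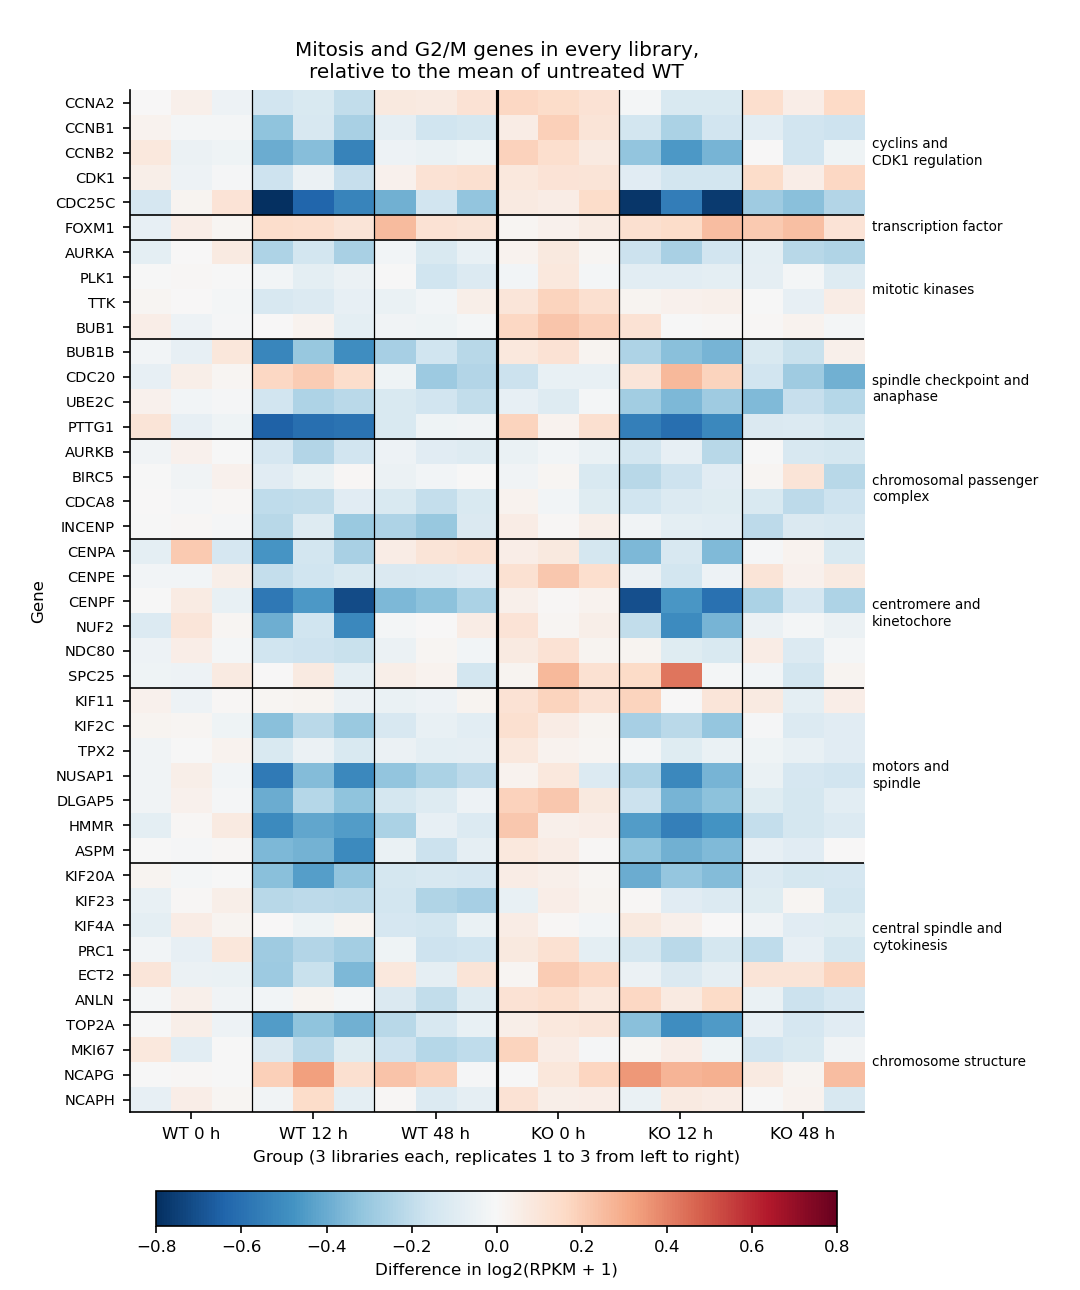
Difference of each of the 41 genes (rows, by role) in each of the 18 libraries (columns) from the mean of untreated WT, in log2(RPKM + 1), blue for lower and red for higher. The 12 h columns of both genotypes are the bluest, with CDC25C, PTTG1 and CENPF darkest; CDC20, FOXM1 and NCAPG are red there.

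At 12 h the genes called in WT and in KO overlapped widely. The 3 that rose in WT, FOXM1, CDC20 and NCAPG, were the 3 that rose in KO. Of those that fell, 24 were shared, which is 82.8% of the 29 in WT and 96% of the 25 in KO. AURKB, CDCA8, INCENP, KIF23 and MKI67 fell in WT without passing the test in KO, and BUB1 the reverse. Across the 41 genes the change in WT and the change in KO had a Pearson's r of 0.951 and a Spearman's rho of 0.92. This is a description over genes that share libraries, and genes are not independent replicates. Overlap between genotypes was counted for members only, here and at 48 h, so it is not shown to be particular to them. The response at 12 h was called different between genotypes for only 0.0753% of all genes tested.

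**Figure D3:**
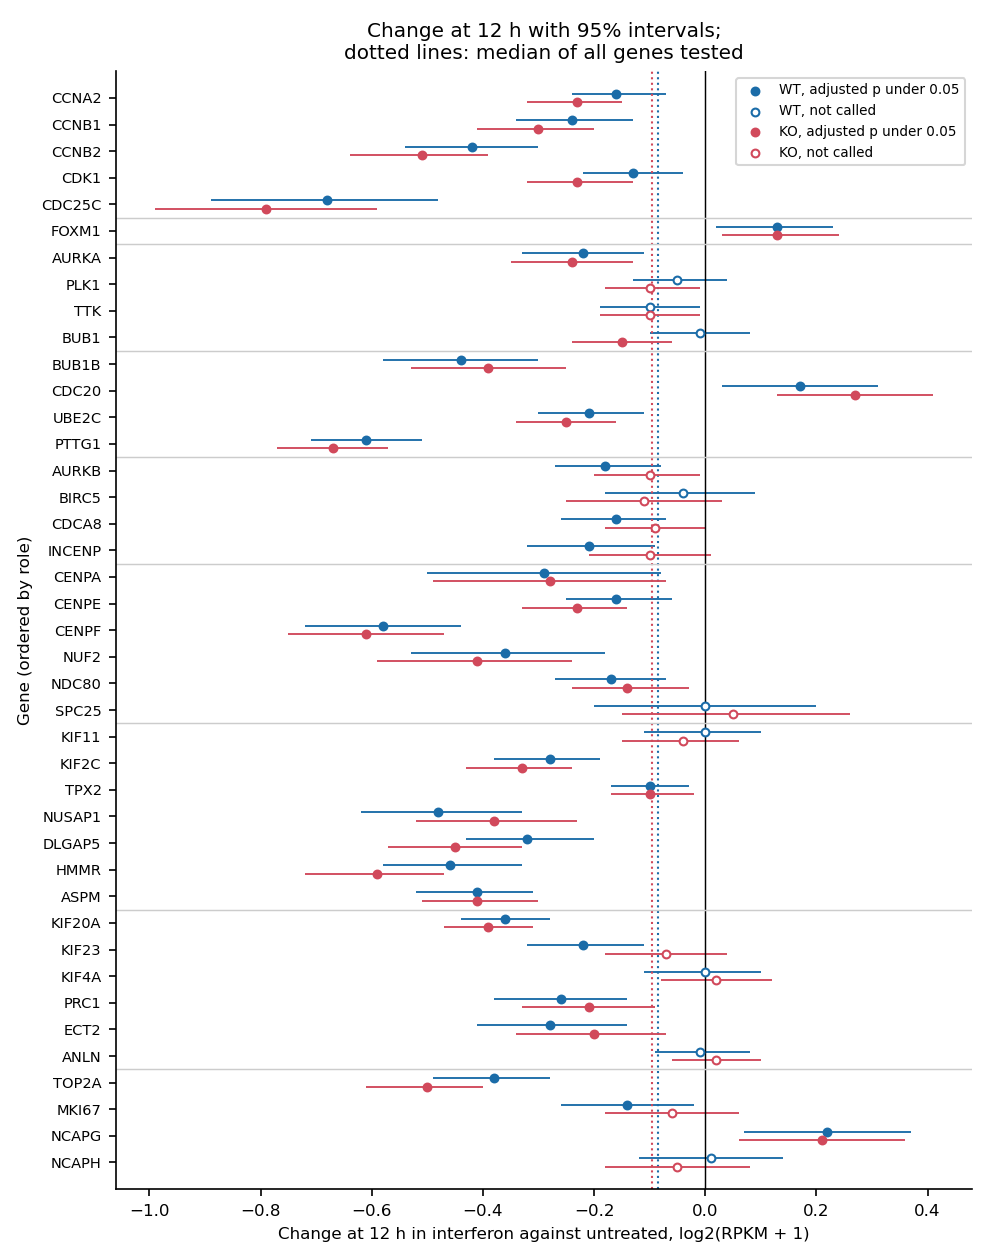
Change at 12 h against untreated on the log2(RPKM + 1) scale for each gene in WT (blue) and KO (red), with 95% intervals from the model; filled points passed the test. Dotted lines mark the median of all genes tested, -0.085 in WT and -0.095 in KO, and most points lie to the left of them.

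The cyclins and the regulators of CDK1 fell throughout at 12 h. All 5 of 5 (CCNA2, CCNB1, CCNB2, CDK1 and CDC25C) passed the test in WT and in KO, where 29.8% and 32.8% of all genes fell. CCNB1, cyclin B1, stood at 203, 197 and 197 RPKM in untreated WT, 159, 182 and 166 at 12 h and 189, 178 and 181 at 48 h. In KO it stood at 207, 227 and 213 RPKM untreated, 179.7, 167 and 179 at 12 h and 188, 179 and 177 at 48 h. Every 12 h library lay below every untreated library of its genotype. The change at 12 h was -0.24 (SE 0.0489, adjusted p = 0.00102) in WT and -0.30 (SE 0.0489, adjusted p = 0.000106) in KO. CDC25C, the phosphatase that switches CDK1 on, fell furthest of the 41 genes in WT and in KO. It stood at 8.40, 9.46 and 10.1 RPKM in untreated WT, 4.56, 5.64 and 6.13 at 12 h and 6.89, 8.27 and 7.29 at 48 h. In KO it was at 9.82, 9.72 and 10.4 RPKM untreated, 5.02, 6.02 and 5.06 at 12 h and 7.47, 7.17 and 7.75 at 48 h. The 3 times did not overlap in either genotype, with 48 h between 12 h and untreated. Its mean was 41.6% lower at 12 h in WT and 46.2% lower in KO, with changes of -0.68 (SE 0.0952, adjusted p = 3.04e-05) and -0.79 (SE 0.0952, adjusted p = 5.83e-06). CCNB2, cyclin B2, changed by -0.42 and -0.51, and CDK1 itself by -0.13 and -0.23. CCNA2, cyclin A2, which acts from S phase into early mitosis, stood at 56.00, 57.4 and 54.3 RPKM in untreated WT, 50.1, 51.2 and 48.7 at 12 h and 59.1, 58.9 and 60.6 at 48 h. Its KO libraries gave 62.9, 62.1 and 60.6 RPKM untreated, 55.2, 51.2 and 51.2 at 12 h and 61.4, 57.9 and 62.5 at 48 h. It fell at 12 h, with changes of -0.16 (SE 0.0398, adjusted p = 0.00441) in WT and -0.23 (SE 0.0398, adjusted p = 0.000176) in KO. After rescaling, the WT changes of CCNA2 and CDK1 no longer passed, at -0.06 (adjusted p = 0.22) and -0.04 (adjusted p = 0.51). That of CDK1 also ended without replicate 1 of WT 0 h or replicate 1 or 3 of WT 12 h.

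FOXM1, the forkhead transcription factor that activates many G2/M genes, went the other way. Its libraries stood at 38.1, 41.4 and 40.3 RPKM in untreated WT, 44.04, 44.01 and 43.01 at 12 h and 47.7, 43.4 and 42.96 at 48 h. In KO they were at 40.4, 40.9 and 41.8 RPKM untreated, 43.8, 44.3 and 47.5 at 12 h and 46.4, 47.4 and 43.1 at 48 h. Every treated library lay above every untreated library of its genotype. The change at 12 h was small, 0.13 (SE 0.0493, adjusted p = 0.0474) in WT and 0.13 (SE 0.0493, adjusted p = 0.0333) in KO. The WT call was near the threshold: over 25 other settings its adjusted p ran from 0.00341 to 0.185 and was above 0.05 in 15 of them, among them leaving out any of the 3 WT 12 h libraries. The KO call was lost in 4, with an adjusted p of up to 0.149, among them leaving out replicate 1 or 2 of KO 0 h or replicate 3 of KO 12 h.

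Among the 4 mitotic kinases only AURKA fell in WT at 12 h (25%), a share not above the 29.8% of all genes. In KO AURKA and BUB1 did (50%, all genes 32.8%). After rescaling none of the 4 fell in either genotype. AURKA, the Aurora kinase of centrosomes and spindle poles, stood at 57.7, 61.03 and 63.97 RPKM in untreated WT, 51.2, 54.95 and 50.7 at 12 h and 60, 55.8 and 58.4 at 48 h. The KO libraries gave 62.1, 64.2 and 61.5 RPKM untreated, 53.8, 50.8 and 54.6 at 12 h and 57.5, 52.1 and 51.3 at 48 h. Its 12 h libraries lay below the untreated ones in both genotypes, with changes of -0.22 (SE 0.0516, adjusted p = 0.00295) and -0.24 (SE 0.0516, adjusted p = 0.00138). After rescaling neither passed, at -0.12 (adjusted p = 0.0825) and -0.13 (adjusted p = 0.0608). PLK1, the polo-like kinase that acts at mitotic entry and on the spindle, was at 80.4, 81.04 and 80.6 RPKM in untreated WT, 79.6, 76.4 and 78.2 at 12 h and 80.5, 72.2 and 74.8 at 48 h. In KO it was at 79.4, 85.6 and 79.7 RPKM untreated, 76.04, 75.97 and 76.5 at 12 h and 76.6, 79.9 and 74.98 at 48 h. Its change was -0.05 (SE 0.0408, adjusted p = 0.371) in WT, with a 95% interval of -0.13 to 0.04, and -0.10 (SE 0.0408, adjusted p = 0.0603) in KO, with an interval of -0.18 to -0.01. After rescaling these were 0.05 (adjusted p = 0.4) and 0.01 (adjusted p = 0.879). TTK, a checkpoint kinase, had -0.10 and -0.10, neither past the test (adjusted p = 0.0629 and 0.0558). BUB1, another checkpoint kinase of kinetochores, changed by -0.01 (SE 0.0421, adjusted p = 0.826) in WT and -0.15 (SE 0.0421, adjusted p = 0.00778) in KO, where rescaling gave -0.04 (adjusted p = 0.405).

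Genes of the spindle checkpoint and of anaphase split. BUB1B, UBE2C and PTTG1 fell in both genotypes and CDC20 rose, 75% and 25% of this role. Of all genes 29.8% (WT) and 32.8% (KO) fell and 15.1% and 16% rose. PTTG1, securin, which holds the protease separase inactive until anaphase, stood at 182, 162 and 166 RPKM in untreated WT, 108, 111 and 113 at 12 h and 156, 166 and 166 at 48 h. In KO its libraries read 192, 173 and 185 RPKM untreated, 116, 111 and 118 at 12 h and 156, 157 and 154 at 48 h. Its 12 h libraries were the lowest of each genotype, and its mean was 34.9% lower in WT and 37.3% lower in KO. The changes were -0.61 (SE 0.0462, adjusted p = 3.83e-08) and -0.67 (SE 0.0462, adjusted p = 1.17e-08). CDC20, the activator through which the anaphase-promoting complex destroys securin, stood at 170.4, 184 and 180.5 RPKM in untreated WT, 200.1, 206 and 197 at 12 h and 174, 146 and 151 at 48 h. Its KO libraries held 158, 171 and 171 RPKM untreated, 191, 213 and 201 at 12 h and 159.8, 146 and 136 at 48 h. Its 12 h libraries lay above all others of the genotype, and its 48 h libraries tended low, with replicate 1 of 48 h inside the untreated range in each genotype. The change at 12 h was 0.17 (SE 0.0662, adjusted p = 0.0465) in WT and 0.27 (SE 0.0662, adjusted p = 0.00289) in KO. In WT its adjusted p ran from 0.00513 to 0.156 over the other settings and was above 0.05 in 14 of 25, including without any of the 6 libraries compared; the KO call was lost in none. BUB1B, the checkpoint protein BubR1, changed by -0.44 and -0.39, and UBE2C, the ubiquitin-conjugating enzyme that works with the anaphase-promoting complex, by -0.21 and -0.25; after rescaling the WT change of UBE2C was -0.11 (adjusted p = 0.0606).

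**Figure D4:**
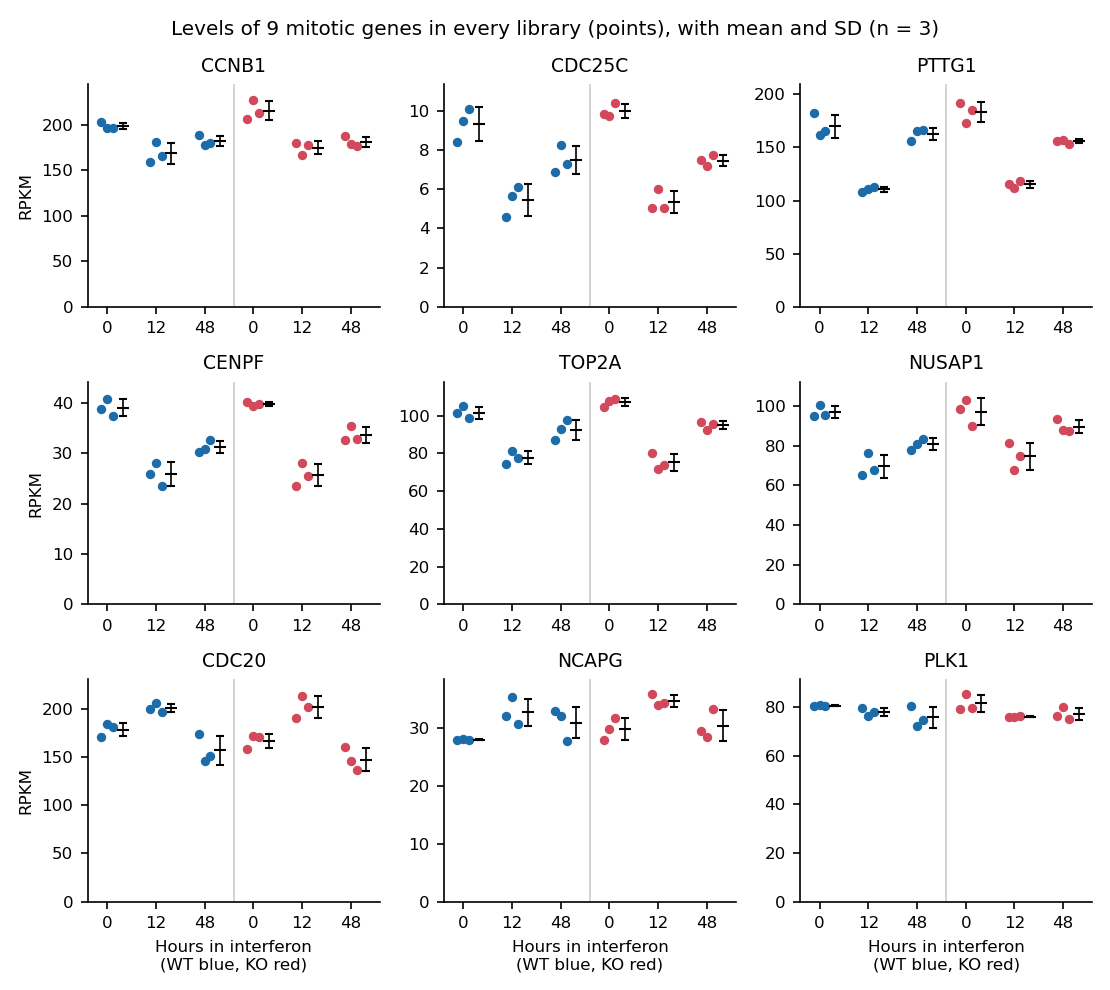
RPKM of 9 genes in every library (points, WT blue and KO red) at 0, 12 and 48 h in interferon, with the mean and SD of 3 libraries beside them; axes start at 0. CCNB1, CDC25C, PTTG1, CENPF, TOP2A and NUSAP1 are lowest at 12 h, CDC20 and NCAPG are highest there, and PLK1 is nearly level.

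In the chromosomal passenger complex, which corrects faulty kinetochore attachments, 3 of 4 genes fell in WT at 12 h (75%, all genes 29.8%). After rescaling none of these calls held. In KO 0 of 4 genes of the complex fell with limma (all genes 32.8%), and 1 (AURKB) had an unadjusted p under 0.05. AURKB, its Aurora kinase, stood at 53.1, 55.3 and 53.9 RPKM in untreated WT, 49.1, 45.8 and 48.5 at 12 h and 52.6, 50.7 and 50.3 at 48 h. KO libraries showed 52.2, 53.1 and 52.2 RPKM untreated, 48.7, 51.6 and 46.3 at 12 h and 53.9, 49.4 and 48.99 at 48 h. The 12 h libraries lay below the untreated ones in both genotypes, with changes of -0.18 (SE 0.0454, adjusted p = 0.00515) and -0.10 (SE 0.0454, adjusted p = 0.0724). INCENP, the scaffold of the complex, was at 34.05, 34.4 and 33.8 RPKM in untreated WT, 29.1, 31.7 and 27.6 at 12 h and 28.5, 27.4 and 31.4 at 48 h. In KO it was at 35.5, 34.2 and 35.2 RPKM untreated, 33.4, 32.2 and 32.02 at 12 h and 29.3, 31.4 and 31.1 at 48 h. Its 12 h and 48 h libraries were all below the untreated ones in both genotypes. The change at 12 h was -0.21 (SE 0.0534, adjusted p = 0.00525) in WT and -0.10 (SE 0.0534, adjusted p = 0.13) in KO. CDCA8, borealin, had -0.16 and -0.09, and BIRC5, survivin, had -0.04 and -0.11 and passed in neither. The difference in response between genotypes was 0.07 (SE 0.0643, adjusted p = 0.954) for AURKB and 0.10 (SE 0.0755, adjusted p = 0.942) for INCENP. After rescaling the WT changes were -0.08 (adjusted p = 0.158) for AURKB, -0.11 (adjusted p = 0.105) for INCENP and -0.07 (adjusted p = 0.209) for CDCA8.

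At the centromere and kinetochore 5 of 6 genes fell in both genotypes (83.3%, all genes 29.8% in WT and 32.8% in KO). After rescaling 2 did in WT (33.3%, all genes 20.5%) and 3 in KO (50%, all genes 22.9%). CENPF, a large kinetochore protein of G2 and mitosis, stood at 38.9, 40.8 and 37.5 RPKM in untreated WT, 25.97, 28.1 and 23.4 at 12 h and 30.2, 30.9 and 32.6 at 48 h. In KO it stood at 40.2, 39.3 and 39.8 RPKM untreated, 23.6, 28.00 and 25.5 at 12 h and 32.6, 35.4 and 32.7 at 48 h. All treated libraries lay below all untreated ones, and 12 h was lowest. The change at 12 h was -0.58 (SE 0.0663, adjusted p = 4.17e-06) in WT and -0.61 (SE 0.0663, adjusted p = 1.85e-06) in KO. NDC80, which binds microtubules, stood at 36.4, 38.98 and 37.00 RPKM in untreated WT, 33.5, 33.2 and 33.04 at 12 h and 36.2, 37.9 and 36.9 at 48 h. The KO libraries gave 39.4, 40.7 and 38.1 RPKM untreated, 37.98, 34.99 and 34.4 at 12 h and 38.99, 34.7 and 37.1 at 48 h. Its changes were smaller, -0.17 (SE 0.048, adjusted p = 0.00998) and -0.14 (SE 0.048, adjusted p = 0.029). The KO call ended after rescaling and without replicate 1 or 2 of KO 0 h or replicate 2 or 3 of KO 12 h, with an adjusted p of up to 0.641; the WT call ended after rescaling, at -0.07 (adjusted p = 0.231). NUF2, its partner in the same complex, changed by -0.36 and -0.41. SPC25, a further subunit, had 0.00 and 0.05 with wide intervals, -0.20 to 0.20 and -0.15 to 0.26. CENPA, the histone H3 variant of centromeres, changed by -0.29 and -0.28. Its calls ended after rescaling, at -0.20 (adjusted p = 0.117) and -0.18 (adjusted p = 0.158). They also ended without replicate 2 of WT 0 h or replicate 1 of WT 12 h (up to 0.136), and without replicate 1 or 2 of KO 0 h or replicate 1 or 3 of KO 12 h. CENPE, a kinetochore motor, changed by -0.16 and -0.23; the WT call of CENPE ended after rescaling and without replicate 3 of WT 0 h (adjusted p of up to 0.268).

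Among the motors and spindle proteins 6 of 7 fell in both genotypes (85.7%, all genes 29.8% in WT and 32.8% in KO). KIF11 did not pass in either. NUSAP1, which bundles spindle microtubules, stood at 95.1, 100.5 and 95.8 RPKM in untreated WT, 65.1, 76.2 and 67.6 at 12 h and 77.7, 81.1 and 83.7 at 48 h. In KO its libraries read 98.8, 103 and 89.9 RPKM untreated, 81.5, 67.6 and 74.9 at 12 h and 93.5, 88.2 and 87.3 at 48 h. The 12 h libraries were below the untreated ones in both genotypes, with changes of -0.48 (SE 0.0687, adjusted p = 4.3e-05) in WT and -0.38 (SE 0.0687, adjusted p = 0.000292) in KO. HMMR, which acts in spindle assembly, changed by -0.46 and -0.59, ASPM, of the spindle poles, by -0.41 and -0.41, and DLGAP5, a spindle assembly factor, by -0.32 and -0.45. KIF2C, a microtubule-depolymerising kinesin, changed by -0.28 and -0.33. TPX2, which activates AURKA on the spindle, changed by -0.10 in both; after rescaling this was 0.00 (adjusted p = 0.971) in WT and turned to 0.01 (adjusted p = 0.834) in KO. Its WT call also ended without replicate 2 or 3 of WT 0 h or replicate 1 or 3 of WT 12 h, and its KO call without replicate 1 of KO 0 h or replicate 2 or 3 of KO 12 h. KIF11, the kinesin that pushes the spindle poles apart, had 0.00 (95% interval -0.11 to 0.10) and -0.04 (-0.15 to 0.06).

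In the central spindle and cytokinesis 4 of 6 genes fell in WT (66.7%, all genes 29.8%) and 3 in KO (50%, all genes 32.8%). After rescaling 3 did in WT (50%, all genes 20.5%). In KO 1 did (16.7%), a share not above the 22.9% of all genes. KIF20A, a kinesin of the central spindle, stood at 48.8, 47.3 and 47.8 RPKM in untreated WT, 37.8, 35.1 and 38.4 at 12 h and 43.5, 43.7 and 43.5 at 48 h. Its KO libraries held 50.1, 49.4 and 48.4 RPKM untreated, 36.1, 38.5 and 37.5 at 12 h and 44.5, 43.4 and 43.5 at 48 h. Its replicates were tight and its 3 times did not overlap in either genotype. The change at 12 h was -0.36 (SE 0.0372, adjusted p = 1.29e-06) in WT and -0.39 (SE 0.0372, adjusted p = 4.94e-07) in KO. PRC1, which cross-links the antiparallel microtubules of the central spindle, stood at 99.9, 96.9 and 108 RPKM in untreated WT, 83.3, 86.2 and 84.03 at 12 h and 99.2, 90.4 and 90.6 at 48 h. KO libraries showed 107, 111 and 96.2 RPKM untreated, 92.1, 87.2 and 91.9 at 12 h and 88.2, 96.8 and 91.8 at 48 h. The changes were -0.26 (SE 0.0559, adjusted p = 0.00128) and -0.21 (SE 0.0559, adjusted p = 0.00606), and after rescaling the KO change was -0.10 (adjusted p = 0.173). ECT2, the exchange factor that activates RhoA at the cleavage site, changed by -0.28 and -0.20; the KO call ended after rescaling, at -0.10 (adjusted p = 0.22), and without replicate 2 of KO 0 h. KIF23, a kinesin of the centralspindlin complex, changed by -0.22 in WT, or -0.12 (adjusted p = 0.075) after rescaling, and had -0.07 (adjusted p = 0.28) in KO. KIF4A, a chromosome-bound kinesin, had 0.00 and 0.02, and ANLN, a scaffold of the contractile ring, -0.01 and 0.02, with none past the test. After rescaling both of the latter rose in KO, at 0.12 (adjusted p = 0.0401) and 0.13 (adjusted p = 0.0163).

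The chromosome structure genes went in both directions. TOP2A, the topoisomerase that untangles sister chromatids, stood at 101.1, 105 and 98.5 RPKM in untreated WT, 74.2, 81.1 and 77.6 at 12 h and 86.99, 92.8 and 97.5 at 48 h. In KO it stood at 105, 108 and 109 RPKM untreated, 80.3, 71.7 and 73.9 at 12 h and 96.9, 92.5 and 95.5 at 48 h. Every 12 h library was below every untreated one of its genotype, with changes of -0.38 (SE 0.0489, adjusted p = 1.3e-05) in WT and -0.50 (SE 0.0489, adjusted p = 5.8e-07) in KO. NCAPG, a subunit of condensin I, stood at 27.96, 28.2 and 27.9 RPKM in untreated WT, 32.1, 35.4 and 30.8 at 12 h and 32.96, 32.1 and 27.9 at 48 h. The KO libraries gave 28.00, 29.9 and 31.7 RPKM untreated, 35.9, 34.1 and 34.3 at 12 h and 29.6, 28.4 and 33.4 at 48 h. Every 12 h library was above every untreated one of its genotype, by 0.22 (SE 0.0707, adjusted p = 0.0207) in WT and 0.21 (SE 0.0707, adjusted p = 0.021) in KO. The WT call ended without replicate 1 or 3 of WT 0 h or replicate 2 of WT 12 h (adjusted p of up to 0.103), and the KO call without replicate 1 of KO 0 h or of KO 12 h (up to 0.0961). NCAPH, another subunit of the same complex, had 0.01 and -0.05 (adjusted p = 0.881 and 0.559). MKI67, the Ki-67 protein of mitotic chromosomes, changed by -0.14 (SE 0.0562, adjusted p = 0.0494) in WT and had -0.06 in KO. The WT call was lost in 18 of 25 other settings (adjusted p of 0.0231 to 0.494), including without replicate 1 or 3 of WT 0 h or replicate 1 or 2 of WT 12 h, and was -0.05 after rescaling.

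At 48 h fewer of the genes differed from untreated, and those that did were mostly lower. In WT 10 of 41 were lower than at 0 h and 1 was higher, where 6.3% of all genes were lower and 6.52% higher. In KO 17 were lower and 0 higher, where 7.42% and 5.9% of all genes were. The median change over members was -0.09 in WT and -0.14 in KO, against -0.003 and -0.012 over all genes. UBE2C, INCENP, CENPF, KIF20A and ANLN were lower in both genotypes, 50% of the WT genes and 29.4% of the KO genes. CENPF was the lowest in WT at -0.31 (SE 0.0663, adjusted p = 0.0047), and CDC25C the lowest in KO at -0.38 (SE 0.0952, adjusted p = 0.015). The latter call ended without replicate 3 of KO 0 h or replicate 2 of KO 48 h (adjusted p of up to 0.0582). CDC25C was 19.8% below its untreated mean in WT and did not pass there, at -0.28 (SE 0.0952, adjusted p = 0.0625). FOXM1 was the 1 gene higher in WT, at 0.16 (SE 0.0493, adjusted p = 0.0478), and was at 0.15 (SE 0.0493, adjusted p = 0.0595) in KO; the WT call was lost in 19 of 25 other settings, with an adjusted p of 0.0373 to 0.192. These counts lean on single libraries. The 11 WT calls became 5, 6 and 5 without replicates 1, 2 and 3 of WT 0 h and 4 and 7 without replicates 2 and 3 of WT 48 h. The 17 KO calls became 11 and 10 without replicates 1 and 2 of KO 0 h. In all 25 other settings 2 of the 11 and 7 of the 17 held.

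Between 12 and 48 h more of the genes rose than fell. In WT 19 of 41 rose and 2 fell, against 24.6% and 11.3% of all genes, with a median of 0.11. In KO 17 rose and 3 fell, against 27.7% and 14%, with a median of 0.05. Of the genes that rose 16 were shared, 84.2% of those in WT and 94.1% of those in KO. PTTG1 rose most, by 0.55 (SE 0.0462, adjusted p = 3.36e-07) in WT and 0.43 (SE 0.0462, adjusted p = 2.75e-06) in KO, followed by CDC25C at 0.40 and 0.41. CDC20 fell furthest, with changes of -0.36 (SE 0.0662, adjusted p = 0.000588) and -0.45 (SE 0.0662, adjusted p = 5.71e-05), and ANLN also fell in both, with -0.13 and -0.25. The median gene moved by 0.074 in WT and 0.079 in KO. After rescaling 13 members rose and 4 fell in WT (all genes 16.1% and 18.2%), and 11 rose and 12 fell in KO (19.1% and 21.1%). The members' median became 0.02 in WT and -0.04 in KO.

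The mitotic genes differed little between genotypes at any time. At 0 h 2 of 41 were higher in KO and 0 lower, where 4.89% of all genes were called (2.82% higher); at 12 h 0 of 41, where 3.62% were (1.6% higher); and at 48 h 1 of 41 higher, where 4.19% were (2.03% higher). At an unadjusted p under 0.05 there were 11, 7 and 5 members (26.8%, 17.1% and 12.2%), against 18.1%, 17% and 16.4% of all genes. The median difference was 0.07 at 0 h, with 34 of 41 above 0, then 0.04 and 0.01. Over all genes the median was 0.02, 0.01 and 0.01. After rescaling the members' medians were 0.05, 0.03 and -0.01. The 95% intervals of all 41 differences lay between -0.24 and 0.34 at 0 h, -0.25 and 0.39 at 12 h and -0.34 and 0.29 at 48 h. Values above 0 mean higher in KO.

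CCNA2, whose libraries are given above, was 10.7% higher in untreated KO, and the ranges did not overlap. The difference was 0.14 (SE 0.0398, adjusted p = 0.0489). BUB1 stood at 33.4, 31.2 and 31.9 RPKM in untreated WT, 32.3, 32.9 and 30.5 at 12 h and 31.5, 31.3 and 31.9 at 48 h. In KO its libraries read 36.3, 37.6 and 36.6 RPKM untreated, 35.01, 32.05 and 32.3 at 12 h and 32.4, 32.8 and 31.8 at 48 h. All 3 untreated KO libraries lay above all 3 of WT, with a difference of 0.19 (SE 0.0421, adjusted p = 0.0144), while the ranges overlapped at 12 h. CENPE stood at 15.1, 15.1 and 15.9 RPKM in untreated WT, 13.3, 13.6 and 14.1 at 12 h and 14.1, 14.2 and 14.4 at 48 h. Its KO libraries held 16.8, 18.00 and 16.9 RPKM untreated, 14.8, 13.8 and 14.9 at 12 h and 16.6, 15.8 and 16.2 at 48 h. It was higher in every KO library at 0 h and at 48 h, with differences of 0.16 (SE 0.0457, adjusted p = 0.0645), and 0.18 (SE 0.0457, adjusted p = 0.0388) at 48 h. None of the 3 calls held in every setting. That of CCNA2 was lost in 22 of 25 (adjusted p of 0.0337 to 0.185), including without any of the 6 libraries compared. That of BUB1 was lost in 4 (0.00833 to 0.0811), including without replicate 2 or 3 of WT 0 h or replicate 2 of KO 0 h. That of CENPE was lost in 10 (0.0294 to 0.169), including without any of the 6 libraries compared.

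The response to interferon was not shown to differ between genotypes for any member. The interaction of genotype and interferon called 0 of 41 at 12 h and 0 of 41 at 48 h with limma, where 0.0753% and 0.0828% of all genes were called. At an unadjusted p under 0.05 there were 1 and 4 members (2.44% and 9.76%), against 5.75% and 6.22% of all genes, and the smallest adjusted p was 0.836 and 0.76, both for BUB1. The 95% intervals ran from -0.39 to 0.34 at 12 h and from -0.45 to 0.35 at 48 h over the 41 genes. The genotype and interferon comparisons share untreated libraries, and so their values stand side by side only.

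As a summary per library, the mean log2(RPKM + 1) over the 41 genes was 5.52 ± 0.01, 5.31 ± 0.039 and 5.44 ± 0.01 (SD, n = 3) in WT at 0, 12 and 48 h, and 5.58 ± 0.022, 5.36 ± 0.018 and 5.45 ± 0.015 in KO. Their summed level was 2359 to 2364 RPKM in untreated WT, 2017 to 2109 at 12 h and 2180 to 2230 at 48 h. In KO it was 2419 to 2486, 2075 to 2137 and 2187 to 2244. In each genotype the 3 times did not overlap, with 12 h lowest and 0 h highest, and the untreated KO libraries lay above the untreated WT libraries. After rescaling, the mean log2(RPKM + 1) per library was 5.47 to 5.50 at 0 h, 5.35 to 5.42 at 12 h and 5.40 to 5.43 at 48 h in WT, and 5.51 to 5.55, 5.40 to 5.43 and 5.41 to 5.43 in KO, so 0 h remained highest and 12 h and 48 h overlapped. No test was made of these summaries.

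More genes of S phase and DNA replication rose than fell at 12 h. Of 32 listed 31 were tested. At 12 h 13 rose (41.9%), 3 fell (9.68%) and 15 were not called in WT, with a median of 0.12. In KO 20 rose (64.5%), 3 fell (9.68%) and 8 were not called, with a median of 0.17. Of all genes 15.1% (WT) and 16% (KO) rose and 29.8% and 32.8% fell. ORC1, a subunit of the origin recognition complex, rose from 12.1 RPKM ± 0.341 to 19.5 ± 0.142 (SD, n = 3) in WT and from 12.5 ± 0.231 to 20.4 ± 0.396 in KO, by 0.65 (SE 0.0408, adjusted p = 3.51e-09) and 0.66 (SE 0.0408, adjusted p = 2.61e-09). MCM10, a replication initiation factor, rose by 0.60 (SE 0.0995, adjusted p = 0.00016) and 0.47 (SE 0.0995, adjusted p = 0.0011). CDC6, PCNA, MCM2, CCNE1 and CCNE2 also rose in both; RRM1, TYMS and RFC4 fell in both before rescaling. After rescaling 18 were higher and 0 lower in WT (58.1% and 0%, all genes 21.8% and 20.5%), and 24 and 1 in KO (77.4% and 3.23%, all genes 23.7% and 22.9%). Against untreated, 48 h gave 1 higher and 3 lower in WT (3.23% and 9.68%, all genes 6.52% and 6.3%), and 2 and 5 in KO (6.45% and 16.1%, all genes 5.9% and 7.42%). The mean over the mitotic genes minus the mean over the S phase genes, which rescaling hardly touches, was 0.43 ± 0.0065, 0.08 ± 0.026 and 0.35 ± 0.032 in WT at 0, 12 and 48 h and 0.48 ± 0.026, 0.08 ± 0.015 and 0.38 ± 0.012 in KO. The 12 h libraries stood apart from all others on this measure.

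A further 44 mitotic genes, listed to complete the pathway, were mostly lower or not called at 12 h. In WT 22 fell (50%, all genes 29.8%) and 3 rose (6.82%, all genes 15.1%), with a median of -0.17. In KO 20 fell (45.5%, all genes 32.8%) and 5 rose (11.4%, all genes 16%), with a median of -0.14. After rescaling 14 fell and 7 rose in WT (31.8% and 15.9%, all genes 20.5% and 21.8%). In KO 12 fell and 10 rose (27.3% and 22.7%), near the shares of all genes (22.9% and 23.7%). GAS2L3, which links microtubules and actin, changed most in WT, at 6.42 RPKM ± 0.427 untreated and 2.70 ± 0.182 at 12 h in WT, and changed by -1.0 (SE 0.0894, adjusted p = 2.71e-07) in WT and -1.19 (SE 0.0894, adjusted p = 3.12e-08) in KO. PIMREG, a mitotic regulator, changed by -0.81 and -0.87. ZWINT, ESPL1 (separase) and CDC25A were the 3 that rose in WT.

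**Figure D5:**
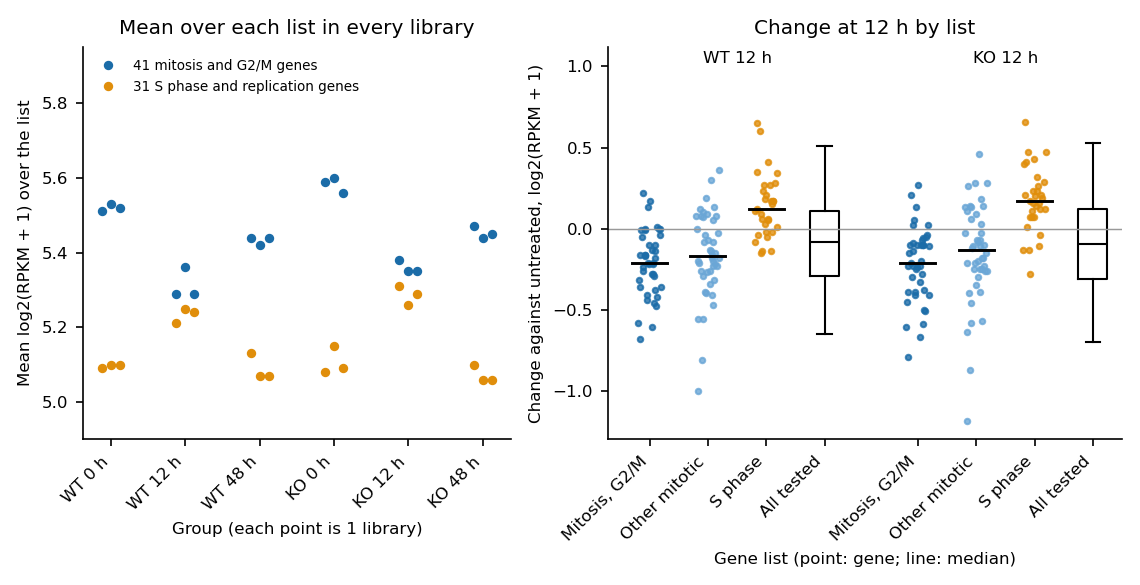
Left, mean log2(RPKM + 1) over the 41 mitotic genes (blue) and the 31 S phase genes (orange) in each library; the axis does not start at 0. Right, change at 12 h of every gene in 3 lists, with lines at the medians, beside all genes tested (box, quartiles; whiskers, the 5th to 95th percentile). The mitotic means drop at 12 h where the S phase means rise.

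The regulators upstream of the mitotic genes were mixed. Of 13 genes of the MuvB, DREAM and B-MYB complexes 4 rose and 4 fell at 12 h in each genotype (30.8% each way), where 15.1% (WT) and 16% (KO) of all genes rose and 29.8% and 32.8% fell, so the share that fell was near that of all genes. MYBL2, B-MYB, rose by 0.25 (SE 0.0611, adjusted p = 0.00318) in WT and 0.35 (SE 0.0611, adjusted p = 0.000231) in KO. RBL2, the pocket protein p130 of DREAM, fell from 28.00 RPKM ± 1.57 to 17.00 ± 1.13 (SD, n = 3) in WT, a change of -0.68 (SE 0.0567, adjusted p = 1.18e-07), and changed by -0.74 (SE 0.0567, adjusted p = 4.16e-08) in KO. TFDP2, a dimer partner of E2F proteins, fell in both, with changes of -0.78 and -0.53. Of 14 CDK inhibitors and G1 cyclins 13 were tested, and at 12 h WT had 2 higher (15.4%) and 6 lower (46.2%), and KO 2 higher (15.4%) and 7 lower (53.8%); the share that rose was near that of all genes. CCND3, cyclin D3, rose by 0.77 (SE 0.0406, adjusted p = 3.33e-10) in WT and 0.90 (SE 0.0406, adjusted p = 4e-11) in KO, and CDKN2D, the inhibitor p19, fell in both, with changes of -0.62 and -0.61.

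The list of CDK inhibitors and G1 cyclins held genotype differences. At 0 h 5 of its 13 tested genes were lower in KO (CDKN1A, CDKN2A, CCND1, CCND2 and CCND3), where 2.07% of all genes were; at 12 h and at 48 h 3 were (CDKN1A, CDKN2A and CCND1), where 2.02% and 2.16% were. CDKN1A, the CDK inhibitor p21, stood at 160.0, 139 and 185 RPKM (SD 5.44, 3.93 and 8.34, n = 3) in WT at 0, 12 and 48 h and 142, 109 and 158 (SD 8.24, 2.6 and 4.63) in KO. The difference was -0.18 (SE 0.0452, adjusted p = 0.0339) at 0 h, -0.36 (SE 0.0452, adjusted p = 0.000168) at 12 h and -0.22 (SE 0.0452, adjusted p = 0.00924) at 48 h. CCND1, cyclin D1, differed by -0.19, -0.21 and -0.20. These are not the largest differences of the list, whose lowest values were -1.08, -0.87 and -1.12 at 0, 12 and 48 h. The mitotic genes were not called beside them, apart from the 3 named above.

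Markers of cell state also changed at 12 h, most of them upward but not all. Of 12 differentiation genes 9 were tested, and 6 rose (66.7%) and 1, KRT10, fell (11.1%) at 12 h in each genotype. Of all genes 15.1% (WT) and 16% (KO) rose and 29.8% and 32.8% fell. Called or not, 3 of the 9 differentiation genes had changes below 0 in WT and 2 in KO. Their summed level was 164 to 186 RPKM in untreated WT, 207 to 220 at 12 h and 155 to 173 at 48 h, and 146 to 165, 178 to 228 and 166 to 188 in KO. TGM1, a transglutaminase of the cornified envelope, rose by 0.79 and 0.86 at 12 h, and IVL, involucrin, by 0.60 and 0.44. Of the 8 keratinocyte markers 5 rose (62.5%) and 1, KRT5, fell (12.5%) at 12 h in each genotype. After rescaling 6 rose and 0 fell in each. KRT6A rose by 0.75 and 0.79 and KRT17 by 0.56 and 0.68. The fibroblast genes summed to 7.28 to 9.48 RPKM in untreated WT and 7.01 to 8.35 at 12 h, and to 7.43 to 8.67 and 6.59 to 8.33 in KO. The part of any of these in the mitotic result was not tested.

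Some levels are less certain. In GENCODE release 29 exons of BUB1B, NUSAP1 and PRC1 overlap another gene on the same strand, and exons of 10 members overlap a gene on the opposite strand. Whether counting used strand is not given in the sources used here. PTTG1, KIF4A and AURKA have near-identical copies elsewhere in the genome, and PTTG2, KIF4B and AURKAPS1 have no row in the table, so reads shared with them may be counted under the members.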

How the data were processed

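Polyadenylated RNA of 18 libraries (6 groups of 3) was sequenced from stranded mRNA libraries. The authors deposited RPKM per gene. Per the submitters' processing notes, the build was hg19 and cutadapt, STAR 2.6.1, RSEM 1.3.0 and limma 3.50.3 were used, with no role or order given. Of 16472 genes, 15666 had a symbol; 13280 with at least 1 RPKM in at least 3 libraries were tested with limma 3.58.1 (R 4.3.3) on log2(RPKM + 1), a mean for each group, 1 shared spread with a mean trend, and Benjamini-Hochberg adjustment over all genes tested in each of 11 comparisons (threshold 0.05). The fit was tested on simulated data. Alternatives were a pseudocount of 0.1, no filter, a mean of at least 5 RPKM, median-of-ratios scaling, only the libraries compared, no trend, a replicate block and each library left out. Relative depth was fitted on 237 low genes, and 67% of their values lay within 5% of the fit. The members and lists were chosen with earlier results of these data known. Values in every library are given for the member of each role with the highest level, for the one that moved most at 12 h in WT, for members called between genotypes, and for the extremes of each interferon comparison. Of other lists, at most 2 genes are given with values, beside CDKN1A, MYBL2 and CCND1. Genes beyond these are named without a rule, after their values were seen.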

Additional observations from a re-analysis of the deposited data

How the results depend on the processing

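With scaling by the median of ratios the 32 calls at 12 h in WT became 19, the mean over members at 12 h became -0.12 in WT (from -0.21) and -0.12 in KO (from -0.22), and its change between 12 and 48 h became 0.04 (from 0.13) and 0 (from 0.09). TPX2 at 12 h in KO turned from -0.10 to 0.01. Using only the libraries compared gave 4 calls at 48 h in WT where there were 11, 10 in KO where there were 17, and 0 for KO against WT at 0 h and at 48 h. Without the mean trend 6 were called at 48 h in WT. KO against WT at 0 h gave 1 instead of 2 with a pseudocount of 0.1, no filter, a mean of at least 5 RPKM, scaling, no trend or the block, and at 48 h 0 instead of 1 with scaling. Leaving out each library gave 26 to 32 calls at 12 h in WT, 23 to 29 in KO, 4 to 11 and 10 to 18 at 48 h, 17 to 22 and 17 to 21 from 12 to 48 h, 0 to 2, 0 to 1 and 0 to 1 between genotypes at 0, 12 and 48 h, and 0 for both interactions. The mean over members ranged from -0.23 to -0.20 at 12 h in WT, from 0.11 to 0.15 from 12 to 48 h in WT and from 0.04 to 0.07 between genotypes at 12 h. The causes were not tested. CHR letters were in 33 of 42 windows of the last 100 bases before and 50 after the start (78.6%), against 36 in the longer windows (85.7%). Of the windows of all genes 11.2% held them in the shorter stretch and 24.0% in the longer.

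With the replicate number as a block 29, 9 and 20 members were called in WT (12 h, 48 h, 48 h against 12 h) and 28, 14 and 20 in KO, and 1, 0 and 0 between genotypes. Deviations of same-numbered libraries correlated between -0.0972 and 0.157, with 2 of 45 pairs over 0.1. Those of libraries with different numbers, also from different groups, correlated between -0.109 and 0.145. No pairing by number was seen, though such correlations cannot show that there was none. Depth is known only as relative depth, so no counting interval is given.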
